A study of Mus musculus with 6 samples.

Results

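H2bc6, H2bc12, H4c8 and H4c9 are 4 clustered histone genes, of which H2bc6 and H2bc12 encode the core histone H2B and H4c8 and H4c9 the core histone H4. They were the rows with these symbols among the 332 genes of the authors' deposited table. That table compares livers of mice given gigantol with livers of mice given vehicle. Every row of it was selected on that same comparison: the smallest absolute log2 fold change listed was 1.00 and the largest unadjusted p 0.0499. The 4 genes were further chosen by their levels in the same 6 livers, which are therefore described here and not tested.

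Livers came from 6 male mice of the Kunming stock, 6 to 8 weeks old with a body weight of 20 to 28 g, split at random into 2 groups of 3. Gigantol, a bibenzyl of Dendrobium orchids that the study describes as an agonist of the nuclear receptors PPARα and PPARγ, was given by mouth at 10 mg/kg to the first group, and the second received an equal volume of vehicle. All livers were taken 4 h after dosing, and the 6 libraries from the 6 mice carried 1 batch label. PANC1, a line from a human pancreatic tumour, appears in the titles, but its organism and tissue labels give mouse liver and all 332 gene IDs are murine, so each library's group was taken from its treatment label.

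Clustered histone genes are transcribed mainly in S phase, when new DNA must be packed into nucleosomes. Their messenger RNAs carry no poly(A) tail and end just after a short hairpin, the histone stem-loop, which is bound by the stem-loop binding protein SLBP. Adult liver consists mostly of hepatocytes outside the cell cycle, so such transcripts are usually scarce there. Ribosomal RNA had been removed from total RNA, per the labels' protocols, and no selection for poly(A) is named there, so RNA without a tail could be sequenced.

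The stem-loop is what sets this class of messenger RNA apart, and each of the 4 genes holds it. In the GENCODE M21 transcripts a match of 16 bases, with a stem of 6 paired bases and a loop of 4, was found in every coding transcript of the 4 genes. The stem-loops are shown 5′ to 3′ as DNA, with the 16 bases in capitals and 5 flanking bases on each side in lower case.
H2bc6: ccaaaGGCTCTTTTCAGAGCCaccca
H2bc12: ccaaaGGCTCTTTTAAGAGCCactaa
H4c8: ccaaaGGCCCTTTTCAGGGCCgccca
H4c9: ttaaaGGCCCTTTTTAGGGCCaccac
Both H2B genes share 1 stem and both H4 genes share another. The match begins 29 bases after the stop codon in H2bc6, 32 bases in H2bc12, 31 bases in H4c8 and 30 bases in H4c9. The same pattern was present in 45 of 66 genes with a clustered histone symbol in that annotation (68.2%) and in 8 of 21835 other protein-coding genes (0.0366%).

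What follows the stem-loop differs among the 4 genes. Only 30 bases of the annotated H2bc12 transcript and 46 bases of the H4c8 transcript lie beyond it. The H4c9 transcript goes on for 330 bases, and the spliced coding transcripts of H2bc6 for 1861 bases. The annotated coding forms of H2bc6 are 2506 and 2480 bases long, and the gene also has a non-coding transcript of 2099 bases. The deposited values are 1 per gene and do not separate these forms.

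**Figure D1:**
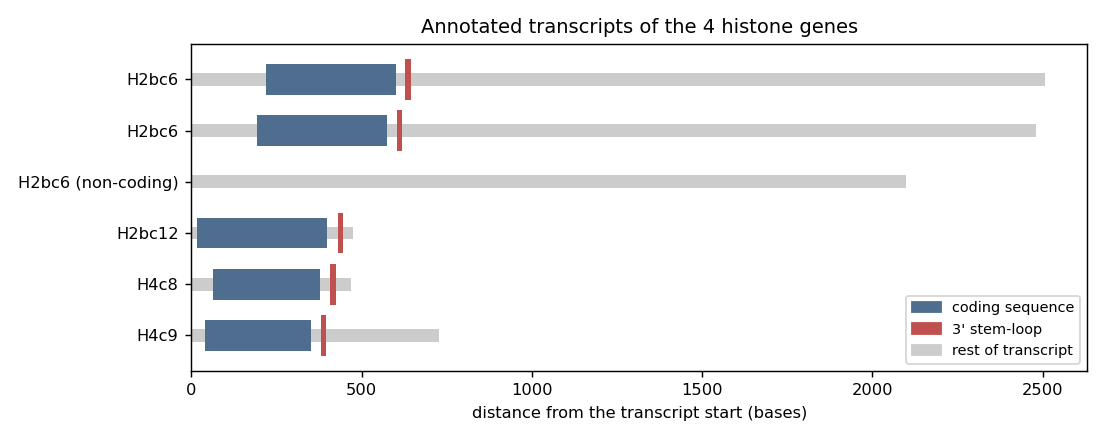
Annotated GENCODE M21 transcripts of the 4 histone genes, with distance from the transcript start in bases on the x axis, the coding sequence in blue, the stem-loop in red and the rest in grey. The stem-loop lies close behind the coding sequence in all 5 coding transcripts, and those of H2bc6 extend 1861 bases beyond it.

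All 4 genes lie on chromosome 13, in the large histone cluster. The authors' deposited table, whose mouse build is not named, places H2bc12 (ENSMUSG00000062727) from 22220040 to 22220515 on the plus strand and H4c9 (ENSMUSG00000060639) from 22224806 to 22225532 on the minus strand, 4290 bases apart. H4c8 (ENSMUSG00000060981) lies from 23715220 to 23715689 on the plus strand, and H2bc6 (ENSMUSG00000047246) from 23767653 to 23805107 on the minus strand, 51963 bases further on. No other gene of the table lies between H2bc12 and H2bc6, a stretch of 1.59 Mb. The span of each gene has the same length in GENCODE M21 (GRCm38), where H2bc6, H2bc12, H4c8 and H4c9 carry the older symbols Hist1h2be, Hist1h2bk, Hist1h4h and Hist1h4i. H2bc12, H4c8 and H4c9 are single exons there and overlap no other gene, whereas 496 exon bases of H2bc6 (11.2%) are also exon of the linker histone gene Hist1h1e and 320 (7.20%) of Gm11398, both on the same strand.

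All 4 genes had lower means with gigantol and negative log2 fold changes in the authors' deposited table. Negative fold changes were listed for 64.2% of the 332 genes and 68.6% of the 118 genes with a mean under 1 CPM. The upstream sequences of the 4 genes are shown as well. RefSeq gives a start site for all 4, and the 250 bases before it (GRCm38.p6) are printed 5′ to 3′ on the gene's strand. Capitals mark exact matches, on either strand, to the letters of the CCAAT box (CCAAT) and the TATA box (TATAAA). They also mark the octamer known from H2B promoters (ATTTGCAT) and a short element known from H4 promoters (GGTCCG), searched likewise. No match overlapped another.
H2bc6, start nearer the coding sequence, chr13:23585971-23586220, minus strand: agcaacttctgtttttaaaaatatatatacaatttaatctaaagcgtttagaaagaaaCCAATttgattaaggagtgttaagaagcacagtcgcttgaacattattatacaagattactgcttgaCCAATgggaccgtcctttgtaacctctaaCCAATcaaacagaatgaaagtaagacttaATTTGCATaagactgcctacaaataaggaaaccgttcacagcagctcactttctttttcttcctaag
H2bc12, chr13:22035571-22035820, plus strand: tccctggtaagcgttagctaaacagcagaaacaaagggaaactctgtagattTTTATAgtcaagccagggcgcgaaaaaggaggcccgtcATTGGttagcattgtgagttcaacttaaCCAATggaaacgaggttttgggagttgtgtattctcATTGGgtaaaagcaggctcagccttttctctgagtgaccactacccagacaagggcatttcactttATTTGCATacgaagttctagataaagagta
H4c8, chr13:23530794-23531043, plus strand: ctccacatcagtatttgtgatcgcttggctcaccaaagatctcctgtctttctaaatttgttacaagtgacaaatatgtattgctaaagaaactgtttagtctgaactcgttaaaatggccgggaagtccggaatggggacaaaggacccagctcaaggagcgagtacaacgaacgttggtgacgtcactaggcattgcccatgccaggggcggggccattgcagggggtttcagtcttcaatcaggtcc
H4c9, chr13:22041363-22041612, minus strand: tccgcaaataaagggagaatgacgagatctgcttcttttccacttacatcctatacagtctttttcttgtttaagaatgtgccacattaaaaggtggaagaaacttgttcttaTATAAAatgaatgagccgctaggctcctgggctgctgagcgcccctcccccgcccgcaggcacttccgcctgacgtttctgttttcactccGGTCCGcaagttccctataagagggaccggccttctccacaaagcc
The octamer was found in the windows of both H2B genes, beginning 67 bases before the start of H2bc6 and 30 bases before that of H2bc12. It was in 1.60% of all 32851 promoter windows of this length and in 6 of 14 windows of H2B genes in the cluster. CCAAT boxes were found 3 times in each of these H2B windows. At least 1 was in 14 of 14 H2B windows of the cluster and in 33.8% of all windows. The H4 element was in the window of H4c9, 46 bases before its start, in 8 of 11 windows of H4 genes in the cluster and in 6.72% of all windows. H2bc12 and H4c9 each had 1 TATA box match. It began 198 bases before the start of H2bc12, on the reverse strand, and 137 bases before that of H4c9. These are matches of letters alone, and whether either works as a TATA box was not tested. Inexact matches were not searched for, such as the tataag nearer the start of H4c9. At least 1 match was in 7 of 14 H2B windows and 6 of 11 H4 windows of the cluster and in 12.4% of all windows. The H4c8 window held none of the 4 motifs in full. It ends in the first letters of the H4 element (ggtcc), and a match running past the start site was not searched for. The second, more distant start of H2bc6 had 3 CCAAT boxes alone.

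H2bc12, an H2B gene, had the highest vehicle mean of the 4 genes in CPM, a gene's reads scaled to the total of its library. It was at 1.35, 0.899 and 1.39 CPM in the 3 vehicle livers and at 0.424, 0.188 and 0.569 CPM in the 3 gigantol livers. All gigantol livers lay below all vehicle livers, with a gap of 0.330 CPM between the groups. The means were 0.394 ± 0.192 CPM with gigantol and 1.21 ± 0.272 CPM with vehicle (SD, n = 3 each), a ratio of 0.325. Behind these values stood 9, 4 and 14 reads with gigantol and 36, 23 and 32 reads with vehicle.

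H4c9, an H4 gene, was at 1.57, 0.704 and 0.911 CPM in the vehicle livers and at 0.330, 0.282 and 0.366 CPM in the gigantol livers. The groups did not overlap, and the gigantol livers were the more alike, with a highest value 1.30 times the lowest against 2.23 times among vehicle livers. Its means were 0.326 ± 0.0421 CPM and 1.06 ± 0.454 CPM (SD, n = 3 each), a ratio of 0.307. The reads numbered 7, 6 and 9 with gigantol and 42, 18 and 21 with vehicle.

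H2bc6, the other H2B gene, was the scarcest by mean over the 6 livers. It read 0.824, 0.391 and 0.694 CPM in the vehicle livers and 0.330, 0.188 and 0.244 CPM in the gigantol livers. The groups did not overlap, but the gap was only 0.0610 CPM, close to the 0.0374 to 0.0471 CPM that 1 read was worth in these libraries. Its means were 0.254 ± 0.0715 CPM and 0.636 ± 0.222 CPM (SD, n = 3 each), a ratio of 0.399, from 17 reads in all with gigantol and 48 with vehicle.

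H4c8, the other H4 gene, rested on a single vehicle liver. It was at 2.40, 0.235 and 0.651 CPM in the vehicle livers and at 0.0940, 0.329 and 0.366 CPM in the gigantol livers. The groups overlapped, since vehicle replicate 2 lay below gigantol replicates 2 and 3. Its means were 0.263 ± 0.148 CPM and 1.09 ± 1.15 CPM (SD, n = 3 each), a ratio of 0.240. Without vehicle replicate 1 the vehicle mean was 0.443 CPM and the ratio 0.594. That liver had 64 reads (95% Poisson interval 49.3 to 81.7), against 6 and 15 in the other vehicle livers, and its interval of 1.85 to 3.06 CPM lay above theirs, which reached 0.511 and 1.07 CPM. These intervals cover counting error only.

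**Figure D2:**
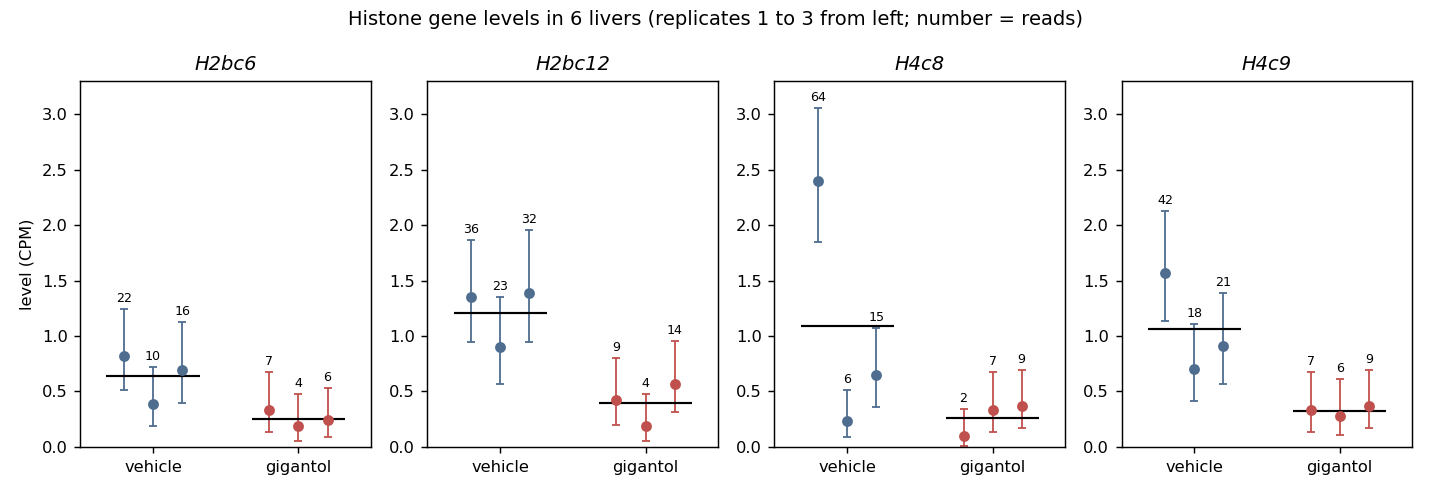
Level of each histone gene in CPM (y axis) in the 3 vehicle and 3 gigantol livers, replicates 1 to 3 from left to right in each group, with 95% Poisson intervals as bars, group means as black lines and the number of reads above each point. The groups are apart for H2bc6, H2bc12 and H4c9, and overlap for H4c8, where vehicle replicate 1 stands at 2.40 CPM.

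Counting error alone was wide at these levels. For H2bc12 the intervals of vehicle replicates 1, 2 and 3 began at 0.944, 0.570 and 0.949 CPM. These values lay below the upper limit of 0.955 CPM of gigantol replicate 3. For H4c9 the interval of vehicle replicate 1, 1.13 to 2.13 CPM, lay above those of all 3 gigantol livers, which reached 0.695 CPM at most. The intervals of vehicle replicates 2 and 3, from 0.417 and 0.564 CPM, did not. For H2bc6 the intervals of vehicle replicates 1, 2 and 3 began at 0.516, 0.188 and 0.397 CPM, below the upper limit of 0.679 CPM of gigantol replicate 1.

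With each liver left out in turn, the ratio of gigantol to vehicle means ran from 0.335 to 0.468 for H2bc6, from 0.253 to 0.410 for H2bc12, from 0.262 to 0.404 for H4c9 and from 0.173 to 0.594 for H4c8. No ratio reached 1 in any of these 24 values. The H4c8 ratio moved by more than 1.5 times only without vehicle replicate 1.

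**Figure D3:**
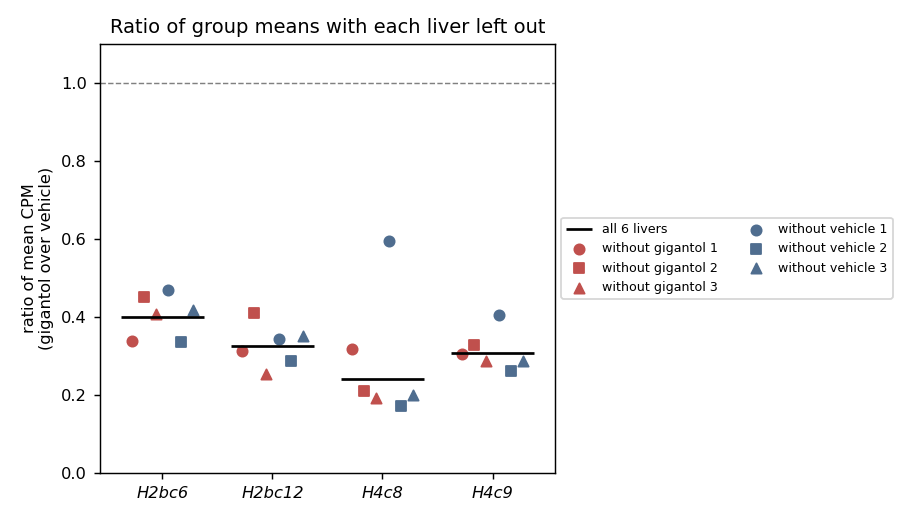
Ratio of mean CPM, gigantol over vehicle (y axis), for each histone gene with all 6 livers (black line) and with each liver left out in turn (red for gigantol, blue for vehicle livers). The dashed line marks equal means. The point farthest from its line is H4c8 without vehicle replicate 1, at 0.594.

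The authors' deposited table gave log2 fold changes of -1.60 for H2bc12, -1.70 for H4c9, -2.05 for H4c8 and -1.32 for H2bc6. Its unadjusted p-values were 0.00330, 0.00337, 0.0230 and 0.0455, the last being near the limit of 0.0499 for entry into the table, and genes beyond that limit were not analysed here. Adjusted by the authors over 13192 genes, the FDRs were 0.180, 0.182, 0.482 and 0.603. In the authors' deposited table none of the 4 genes was under an FDR of 0.05, a level that 25.9% of the 332 listed genes passed. All 4 were under an unadjusted p of 0.05, as every listed gene is. The median log2 fold change of the 4 genes in the authors' deposited table was -1.65, beside -1.15 over all 332 genes of both directions. Over the lower genes alone the median was -1.40, and -1.54 over those of the 118 genes with a mean under 1 CPM.

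For 3 of the 4 genes all gigantol livers lay below all vehicle livers, a pattern shared by 48.5% of all 332 genes and 56.8% of those whose mean was under 1 CPM. The count was 4 without vehicle replicate 2 and 3 without any other 1 liver. The matching shares of all genes were not computed for these smaller sets of livers, so these counts have no background. On the log2(CPM + 1) scale, which understates the change of genes this low, the differences of gigantol minus vehicle were -0.67 ± 0.18 for H2bc12, -0.62 ± 0.18 for H4c9, -0.60 ± 0.36 for H4c8 and -0.38 ± 0.14 for H2bc6 (limma SE). None of the 4 reached 1 CPM in 3 libraries, the minimum for the limma test, so they were outside the 201 genes tested with it, of which 55.2% passed an adjusted p of 0.05. In the limma fit without that minimum, adjusted over the 332 selected genes, 3 of the 4 passed 0.05 with 50.9% of those genes. With 1 liver left out between 0 and 2 of the 4 passed, while the count over the table ran from 20 to 218 of 332 genes. With all 6 livers, 1 of the 4 passed with plain variance moderation (89 of 332 genes), 2 with the replicate block (106 of 332) and 2 with a pseudocount of 0.1 (153 of 332). Since the same livers selected the table, these calls describe the rows and are no test of them.

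**Figure D4:**
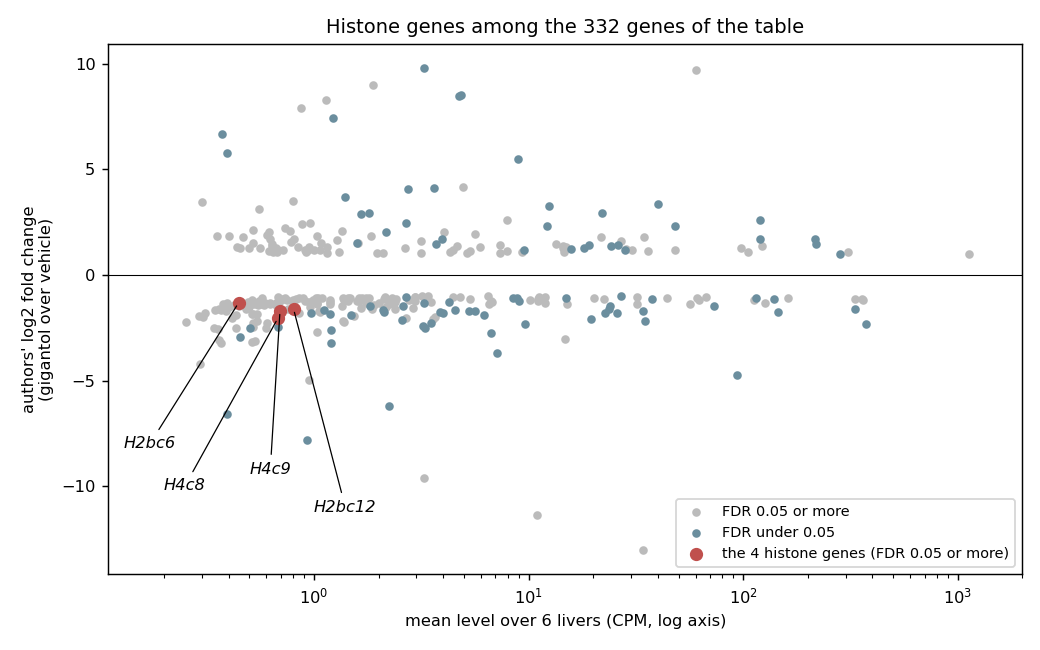
Mean level over the 6 livers in CPM (log x axis) against the authors' log2 fold change, gigantol over vehicle (y axis), for the 332 genes of the table, coloured by the authors' FDR. The 4 histone genes (red) lie at the scarce end, between -1.32 and -2.05, and none has an FDR under 0.05.

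Summed over the 4 genes, the level was 6.14, 2.23 and 3.64 CPM in the vehicle livers and 1.18, 0.987 and 1.55 CPM in the gigantol livers. Vehicle replicate 1 was the highest of all 6 livers for H2bc6, H4c8 and H4c9, while vehicle replicate 3 was the highest for H2bc12. H4c8 made up 39.0% of the sum in vehicle replicate 1 against 10.5% and 17.9% in the other vehicle livers. H4c9 held a steadier share, between 23.7% and 31.6% in all 6 livers. In bulk liver, fewer cells of a type and less RNA per cell cannot be told apart.

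Per kilobase of annotated exon, the vehicle means were 2.55 ± 0.570 CPM for H2bc12, 2.33 ± 2.44 CPM for H4c8, 1.46 ± 0.624 CPM for H4c9 and 0.143 ± 0.050 CPM for H2bc6 (SD, n = 3 each). The ranges of the first 3 overlapped, and H2bc6 stood below each of them in every vehicle liver. Its annotated exons add up to 4446 bases. A length that ended at the stem-loop would give it a higher level for the same number of reads. Reads beyond the stem-loop would then drop out too, and the deposited values do not show where reads fall.

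Reads of the 4 genes cannot always be told from those of their relatives. The coding sequences of H2bc6 and H2bc12 are identical at 371 of 381 bases (97.4%) and those of H4c8 and H4c9 at 299 of 312 (95.8%). Of all windows of 100 bases in the coding transcripts, 70.8% in H2bc12, 38.5% in H4c8, 15.1% in H4c9 and 9.93% in H2bc6 also occur in another annotated gene. Within the coding sequence alone the shares were 94.3%, 66.2%, 44.6% and 47.9%, in the same order, most of H2bc6's unshared windows lying outside it. At this window length H2bc12 shares most with Hist1h2br, H2bc6 with Hist1h2bg and both H4 genes with Hist1h4j. With windows of 50 bases it was Hist1h2bc for H2bc6 and Hist1h4n for H4c9. The sources used here do not say how reads that fit several genes were counted, so reads may have been split among, or withheld from, near-identical genes. The 4 values are uncertain to that extent.

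Other genes of the same system were looked for in the table, which lists 332 of the 13192 genes that the authors adjusted over. Most genes of any list could thus be absent, and how many listed genes were among the 13192 is not known. Of 70 replication histone genes listed, these 4 were in the table. The 66 others, such as those for H1, H2A and H3, were not analysed here. None of 23 replacement and variant histones, which are made outside S phase, and none of 25 genes for histone messenger RNA processing and histone transport was in the table. Of 59 S phase and proliferation genes, Cdkn1a and Myc were present, and neither passed an FDR of 0.05. Cdkn1a, which encodes the cell cycle inhibitor p21, was at 20.8 ± 9.39 CPM with gigantol and 8.14 ± 5.09 CPM with vehicle, FDR 0.210 in the authors' deposited table. Myc, a growth-promoting transcription factor, was at 4.01 ± 2.88 CPM with gigantol and 9.29 ± 2.37 CPM with vehicle (SD, n = 3 each), FDR 0.325 in the authors' deposited table. S phase genes that usually accompany histone synthesis, such as Pcna, Mcm2 and Rrm2, were not analysed here.

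A histone-named locus outside the lists, H2af-ps2, was picked out after its values were seen. It lies on the same chromosome from 51356763 to 51357101, outside the stretch that holds the 4 genes. It was at 0.974, 2.62 and 3.73 CPM in the vehicle livers and 0.188, 0.986 and 0.732 CPM in the gigantol livers, so the groups overlapped by a narrow margin. Its FDR in the authors' deposited table was 0.171. Vehicle replicate 1 was its lowest vehicle liver, unlike the pattern of H2bc6, H4c8 and H4c9.

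Some markers of blood, immune and stellate cells also had lower means in the gigantol livers. Of all listed genes, 64.2% had negative log2 fold changes in the authors' deposited table. That table lists 332 of the 13192 genes that the authors adjusted over. How many of the markers were among the 13192 is not known. Of 8 neutrophil markers Mpo alone was in the table. Mpo, the myeloperoxidase of granulocyte precursors, read 5.06, 0.391 and 1.08 CPM in the vehicle livers and 0.188, 0.0940 and 0.407 CPM in the gigantol livers. The authors' deposited table gave it an FDR of 0.0479. As for H2bc6, H4c8 and H4c9, vehicle replicate 1 was the highest and vehicle replicate 2 the lowest vehicle liver. Of 8 erythroid markers 6 were in the table, all with lower means, summing to 349 to 633 CPM with gigantol and 554 to 1913 CPM with vehicle, ranges that overlapped. Hba-a2, an alpha globin gene, was the 1 of these that passed in the authors' deposited table (FDR 0.000966), at 120, 134 and 69.9 CPM with vehicle and 26.4, 44.0 and 46.3 CPM with gigantol, with no overlap. Vehicle replicate 1 had the lowest erythroid sum of the vehicle livers, but vehicle replicate 3 was the lowest for Hba-a2. Lymphocyte markers were represented by Cd79a of B cells, 1 of 7 listed, at 0.141 to 0.282 CPM with gigantol and 0.347 to 0.749 CPM with vehicle. Cd8a and Nkg7, 2 of 7 T and NK cell markers, summed to 0.424 to 0.657 CPM and 1.27 to 1.65 CPM. Marco, 1 of 8 Kupffer and myeloid markers, was at 1.55 to 3.71 CPM and 8.21 to 8.89 CPM, with groups that did not overlap. The authors' deposited table gave Marco an FDR of 0.000107. Lrat and Des, 2 of 7 stellate cell markers, summed to 6.81 to 11.9 CPM and 13.1 to 24.5 CPM. None of these markers was at 0 in any liver, and their part in the histone values was not tested. None of 10 hepatocyte, 6 endothelial or 5 cholangiocyte markers was among the genes analysed here, so the liver label could not be checked against hepatocyte markers.

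The genes most like the 4 histone genes across the 6 livers were ranked by the root mean square difference from their mean log2(CPM + 1) profile, each profile centred on its own mean. Nearest of 328 other genes was Raet1e, of a family of ligands for the NKG2D receptor, with a difference of 0.09. It was at 0.837 ± 0.0619 CPM with gigantol and 1.92 ± 0.794 CPM with vehicle (SD, n = 3 each). Next came Syne4, a nuclear envelope protein of the nesprin family, at 0.10, the predicted gene Gm36161 at 0.11, the glucose transporter gene Slc2a3 at 0.13 and Gdpd5, a glycerophosphodiester phosphodiesterase, at 0.14. By the same measure the 4 genes themselves differed from their mean by 0.05 for H4c9, 0.15 for H2bc6, 0.16 for H2bc12 and 0.26 for H4c8. H2bc6, H2bc12 and H4c8 thus stood farther from that mean profile, of which each is a part, than any of these 5 other genes. The log2 fold changes of Raet1e, Syne4, Gm36161, Slc2a3 and Gdpd5 in the authors' deposited table were -1.19, -2.49, -4.20, -1.40 and -1.21. Those of the 4 histone genes ran from -1.32 to -2.05. With 1 CPM added, nearness on this scale does not mean a like fold change for genes this scarce.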

How the data were processed

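Stranded libraries of rRNA-depleted total RNA were sequenced from 6 livers, per the labels' protocols. The submitters' processing notes name fastp, HISAT2 and DESeq2 1.16.1 with no role or order, and the human build GRCh38; for the counter, the annotation and any filter no source used here has an entry. The CPM values were deposited by the authors; the header names no unit, and the unit was read from the values. All values up to 200 reads in a library (239 to 256 genes) were whole multiples of 1 step within 0.1 reads. These steps, not a deposited count, gave reads per gene, Poisson intervals and depths of 21200000, 21300000 and 24600000 reads for gigantol and 26700000, 25600000 and 23100000 for vehicle livers. The table held 0.637% to 0.842% of each library. The log2 fold changes, p-values and FDRs were deposited by the authors, per the file headers.

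The members and gene lists were chosen with earlier results of these data known. limma 3.58.1 (R 4.3.3), two-sided, was run on log2(CPM + 1), with a filter of 1 CPM or more in 3 or more libraries. Variance moderation was both robust and trended, with Benjamini-Hochberg adjustment over the genes tested at 0.05. limma was also tried on simulated data without preselected genes, which cannot show how it behaves on rows selected on the same livers. On the real data it passed 111 of 201 genes (55.2%), all preselected on the same livers. SEs of the 4 genes come from the same fit without the filter. Alternatives were other pseudocounts, filters, moderation, a replicate block and leaving out each library. Genes named are the 4 members, all other listed genes of the histone and S phase lists and cell type markers in the table, and the 5 nearest profiles; as no member passed the filter, the profiles were ranked without it, a choice made after seeing the data. Sequences are from GENCODE M21 and RefSeq (all 4 matched by ID or symbol).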

Additional observations from a re-analysis of the deposited data

How the results depend on the processing

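No difference of the 4 histone genes changed direction in any alternative run. A smaller pseudocount gave larger differences, by construction, on the log2(CPM + pseudocount) scale: with 0.5 they were -0.58 for H2bc6, -0.95 for H2bc12 and -0.88 for H4c9, and with 0.1 they were -1.03 for H2bc6, -1.47 for H2bc12, -1.34 for H4c8 and -1.38 for H4c9. With 1 library left out, the differences on the log2(CPM + 1) scale ran from -0.49 to -0.29 for H2bc6, from -0.77 to -0.56 for H2bc12, from -0.91 to -0.18 for H4c8 and from -0.74 to -0.45 for H4c9. The corresponding ratios of means ran from 0.335 to 0.468, from 0.253 to 0.410, from 0.173 to 0.594 and from 0.262 to 0.404. The count of the 4 genes with groups apart, an alternative chosen after seeing the data, ran from 3 to 4. No matching share over all genes was computed for it. The limma count of 111 genes was 169 of 332 without a filter and 24 of 101 at a mean of at least 5 CPM, which none of the 4 genes reached; it was 43 and 46 without gigantol replicates 1 and 3, 25 and 26 without vehicle replicates 2 and 3, and 119 at most with 1 library left out (without vehicle replicate 1). With the filter reapplied, 180 to 186 genes were tested in these runs. The replicate block gave 128 limma calls and left the 4 differences as they were (-0.38, -0.67, -0.60 and -0.62 for H2bc6, H2bc12, H4c8 and H4c9). Same-numbered livers had correlations of deviations of 0.13, 0.15 and -0.10, and not every liver correlated best with its own number. With 3 livers per group and preselected genes, these values cannot decide whether same-numbered livers share more than a number. Count tests on reads worked out from the CPM steps were not run: the rule applied asked for 100 values of at most 20 reads in a column, and the vehicle columns had 89 to 95, against 125 to 136 for gigantol. At 2 to 64 reads per gene and liver, counting error limits all values of the 4 genes.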
